A study of Mus musculus with 4 samples.

Results

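The Hox genes were followed in reporter-sorted marrow stroma of C57BL/6 mice, comparing 3 mice that carried the marrow of a myeloproliferative neoplasm (MPN) with 1 mouse that carried control marrow. Members were all genes whose single symbol in the array platform's annotation was Hox, a cluster letter from a to d and a number. There were 37 of them among 19938 measured genes, namely 10 of the Hoxa, 9 of the Hoxb, 9 of the Hoxc and 9 of the Hoxd cluster. Each had 1 probe set, so no choice between probe sets was needed.

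Both groups were recipient mice with the Nes-gfp transgene, in which regulatory sequence of nestin (Nes) drives green fluorescent protein. Their marrow was taken 10 weeks after transplantation, and the sort kept reporter-positive cells that lacked CD45, CD31 and Ter119. The MPN mice had received marrow cells with Mx1-cre, an interferon-inducible recombinase, and a mutant JAK2, and the control mouse had received marrow cells without either, as far as its label goes. Each array was taken as 1 mouse, as the titles name it. Which bones gave the cells is not given in the sources used here. The study concerned the nerves and stroma of the marrow niche in MPN.

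Hox genes encode homeodomain transcription factors that give cells their position along the body axis. In mammals they lie in 4 clusters, and within a cluster the order of the genes follows the order in which they are used, low-numbered genes in the head and neck and high-numbered genes in the lower trunk and the ends of the limbs. Genes of the same number in different clusters are paralogues. Adult mesenchymal cells keep a Hox pattern that records where in the body they arose, and blood stem and progenitor cells use genes of the Hoxa and Hoxb clusters.

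Promoters are shown, with their content of the dinucleotide CpG, for the Hox genes that stood furthest from the control relative to their error. They are given for the genes with an unadjusted p under 0.05 in limma's test, chosen by that result, where RefSeq's table (GRCm38.p6) held a window. Each runs 5′ to 3′ from 250 bases before to 50 after the annotated start, and capitals mark CpG.
Hoxa2, chr6:52164782-52165081, minus strand: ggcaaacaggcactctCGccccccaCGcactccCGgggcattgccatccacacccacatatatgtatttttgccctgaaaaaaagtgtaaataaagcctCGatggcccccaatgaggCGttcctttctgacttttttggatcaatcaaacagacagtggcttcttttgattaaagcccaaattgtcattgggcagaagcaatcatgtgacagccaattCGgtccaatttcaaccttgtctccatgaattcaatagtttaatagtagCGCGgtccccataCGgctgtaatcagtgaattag
Hoxa5, chr6:52204538-52204837, minus strand: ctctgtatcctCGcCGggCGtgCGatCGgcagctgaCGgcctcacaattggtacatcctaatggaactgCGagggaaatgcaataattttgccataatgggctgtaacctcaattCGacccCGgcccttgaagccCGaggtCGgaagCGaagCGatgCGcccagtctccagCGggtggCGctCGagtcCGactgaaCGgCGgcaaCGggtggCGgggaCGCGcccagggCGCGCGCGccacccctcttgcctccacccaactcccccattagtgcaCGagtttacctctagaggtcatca
Hoxb4, chr11:96318017-96318316, plus strand: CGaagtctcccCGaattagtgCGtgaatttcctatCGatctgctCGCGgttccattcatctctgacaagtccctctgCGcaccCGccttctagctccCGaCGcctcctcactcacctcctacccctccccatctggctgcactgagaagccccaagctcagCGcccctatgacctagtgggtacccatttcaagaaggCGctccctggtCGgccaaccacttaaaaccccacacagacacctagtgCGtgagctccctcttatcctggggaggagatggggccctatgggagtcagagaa
Hoxd10, chr2:74691641-74691940, plus strand: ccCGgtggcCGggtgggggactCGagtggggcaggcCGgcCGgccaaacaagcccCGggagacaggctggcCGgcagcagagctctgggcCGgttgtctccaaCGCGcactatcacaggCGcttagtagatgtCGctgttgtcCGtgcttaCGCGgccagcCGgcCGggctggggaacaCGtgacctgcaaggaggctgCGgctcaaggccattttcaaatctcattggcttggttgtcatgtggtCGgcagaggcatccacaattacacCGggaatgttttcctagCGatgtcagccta
Hoxa13, chr6:52260831-52261130, minus strand: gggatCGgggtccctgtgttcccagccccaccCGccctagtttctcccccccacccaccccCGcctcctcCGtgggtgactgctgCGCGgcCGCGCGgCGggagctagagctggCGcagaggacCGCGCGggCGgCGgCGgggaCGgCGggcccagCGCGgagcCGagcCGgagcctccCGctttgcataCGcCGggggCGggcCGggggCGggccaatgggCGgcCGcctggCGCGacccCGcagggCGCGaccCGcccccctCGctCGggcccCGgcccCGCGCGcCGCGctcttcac

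The first 4 belong to genes lower on the MPN arrays and the last to a gene that was higher. No window was held for Hoxb5 and Hoxc6, which also had a lower MPN mean and an unadjusted p under 0.05 by limma. The printed windows of 300 bases held 9 CpG in Hoxa2, 29 in Hoxa5, 14 in Hoxb4, 22 in Hoxd10 and 45 in Hoxa13. In 23 windows of 21 measured Hox genes the count ran from 4 to 45 with a median of 15, against a median of 7 in all 32851 windows, and 19 of the 23 were at or above the latter. The windows of Hoxa9, Hoxd4 and Hoxd8 and 1 of Hoxd11 were below it, with 4, 4, 6 and 4 CpG. The highest count was that of Hoxa13, and the counts of the other 4 printed windows lay inside the range of the family. The nuclear receptor hexamer AGGTCA, searched on both strands, was in the windows of Hoxa5, Hoxb4 and Hoxd10, in 7 of the 23 Hox windows and in 16.3% of all windows. TGATNNAT, a composite of the sites of PBX and HOX proteins, was in the window of Hoxa2, in 3 Hox windows and in 8.85% of all. The homeodomain core TAAT, which can lie inside TGATNNAT, was in 18 Hox windows and 58% of all, and TATAAA in 3 Hox windows and 13.6% of all. These are matches of letters and no evidence of binding.

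Expression is given as the deposited log2 value, made by RMA (robust multi-array average), on which a difference of 1 is a factor of 2. Because the level of a probe set also depends on its probes, no Hox gene's level is ranked against another's. Background was read from 1027 olfactory receptor genes, a family used in the nose. The limit was the 95th percentile of their values in the same group, 5.35 for means of the 3 MPN arrays and 5.05 for the control array. The receptor genes themselves had a median difference of 0.26 between MPN and control, and all genes one of 0.18, so differences are to be read against that shift. In bulk samples, fewer cells of a type and less RNA per cell cannot be told apart.

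The sorted cells of the groups differed in the markers they carried, so the Hox values below come from cells of unlike marker content. Of the mesenchymal stroma list, 14 of 15 genes were measured. Their summed log2 level was 79.83 to 91.45 in MPN and 135.11 in the control, with Lepr at 6.85, 5.81 and 7.17 against 10.80, and Kitl and Lum under the limit in MPN. The 13 pan-leukocyte genes summed to 111.63 to 122.53 against 83.92, with Ptprc, the gene of CD45, at 10.16, 9.46 and 10.40 against 7.07, and Spi1 and Vav1 under the limit in the control. The 14 neutrophil genes summed to 137.64 to 150.47 against 105.68, with Ly6g under the limit in the control. Endothelial markers were mostly under the limit, 7 of 8 in the control and 5 of 8 in MPN. Nes was at 4.56, 3.92 and 4.26 against 4.26, under the limit in both groups. Xist, transcribed from the inactive X chromosome, was at 8.37, 9.31 and 9.22 against 3.30. The labels give no sex, so sex and group cannot be told apart. The part of marker content in the Hox values was not tested.

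**Figure D1:**
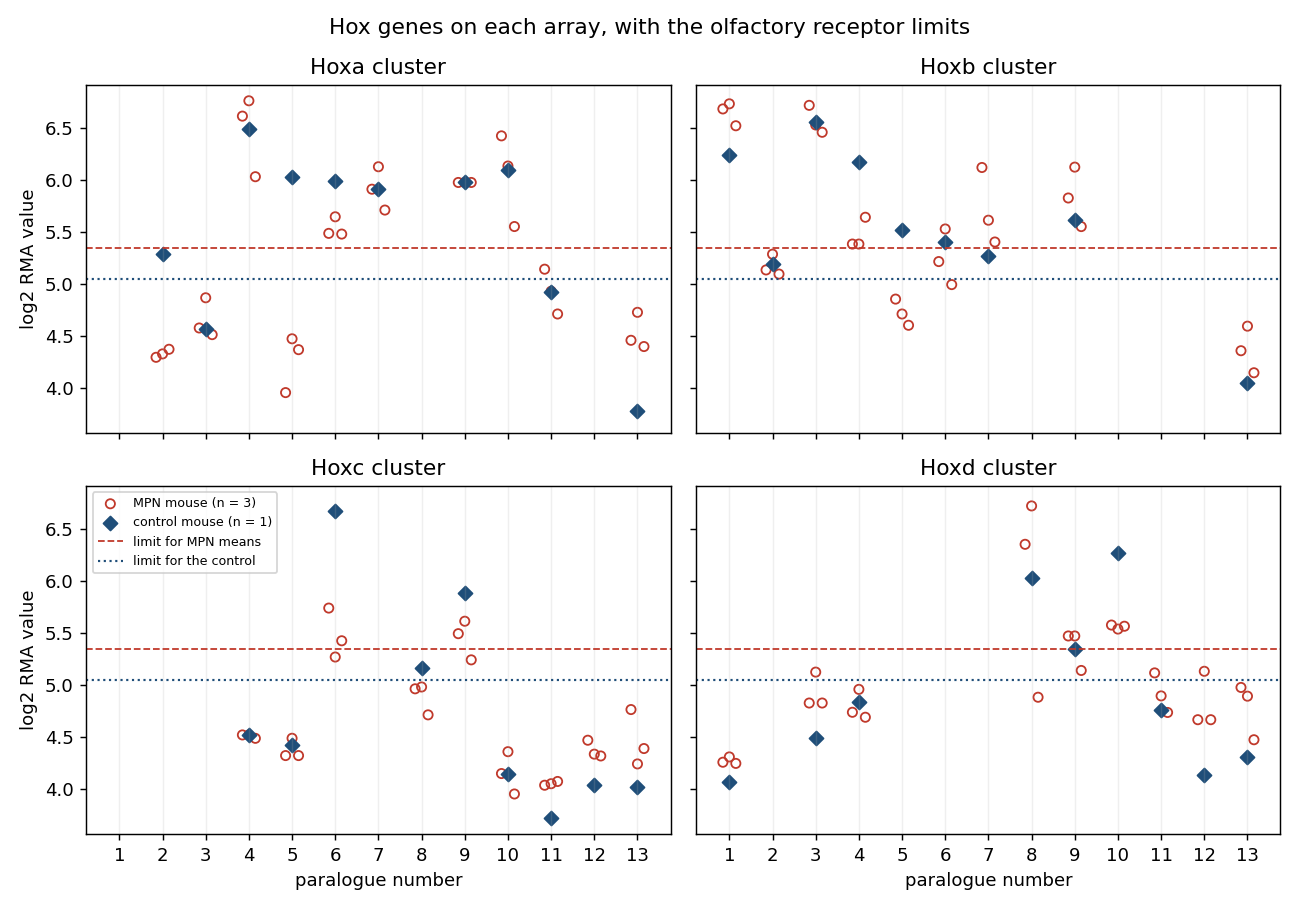
Log2 RMA value (vertical axis) of each of the 37 Hox genes on each array, by cluster and paralogue number (horizontal axis). Open circles are the 3 MPN mice, diamonds the control mouse, and the lines the olfactory receptor limits of 5.35 for MPN means and 5.05 for the control. No gene numbered 11 to 13 had a group value above its limit, and the Hoxa5 circles (3.96 to 4.48) lie far below their diamond (6.03).

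In the control mouse 21 of the 37 Hox genes lay above the limit, and in the MPN mice 15 did. All 15 were also above it in the control. The shares, 56.8% and 40.5%, stand beside 55.9% and 49.8% of all genes, so the Hox family was detected in the control about as often as any gene. Above the limit in both groups were 40.5% of Hox genes and 46.2% of all genes. The 6 Hox genes above it in the control alone were Hoxa2, Hoxa5, Hoxb2, Hoxb5, Hoxb6 and Hoxc8, a share of 16.2% against 9.68% of all genes. None was above it in MPN alone, against 3.58% of all genes. The limit itself was higher in MPN, and Hoxb2 and Hoxb6 ended under it with differences of only -0.02 and -0.16. With 1 limit for both groups, from the mean over the 4 arrays, 3 Hox genes were above it in the control alone, which were Hoxa2, Hoxa5 and Hoxb5. Of all genes 50.1% were above that limit in the control and 53.2% in MPN. With the limit at the 99th percentile, 13 Hox genes were above it in the control and 3 in MPN, which were Hoxa4, Hoxb1 and Hoxb3, while 37.7% and 23.3% of all genes were. At the 90th percentile 25 were above it in the control and 17 in MPN, against 68.8% and 62.2% of all genes. The 8 then above it in the control alone were Hoxa2, Hoxa3, Hoxa5, Hoxa11, Hoxb5, Hoxc8, Hoxd4 and Hoxd11.

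Counts above the 95th percentile limit were also taken by cluster and by position, to be read beside 55.9% of all genes in the control and 49.8% in MPN. Of 10 Hoxa genes 7 were above the limit in the control and 5 in MPN, and of 9 Hoxb genes 8 and 5. Of 9 Hoxc genes 3 and 2 were, and of 9 Hoxd genes 3 in each group. By position, 6 of 11 genes numbered 1 to 4 were above it in the control and 4 in MPN. Of the 10 genes numbered 5 to 8, 9 were above it in the control and 5 in MPN. Of the 7 genes numbered 9 and 10, 6 were above it in each group. Of the 9 genes numbered 11 to 13, none was above it in either group, while at the 90th percentile Hoxa11 and Hoxd11 were above it in the control alone. The bands were drawn after the values were seen.

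**Figure D2:**
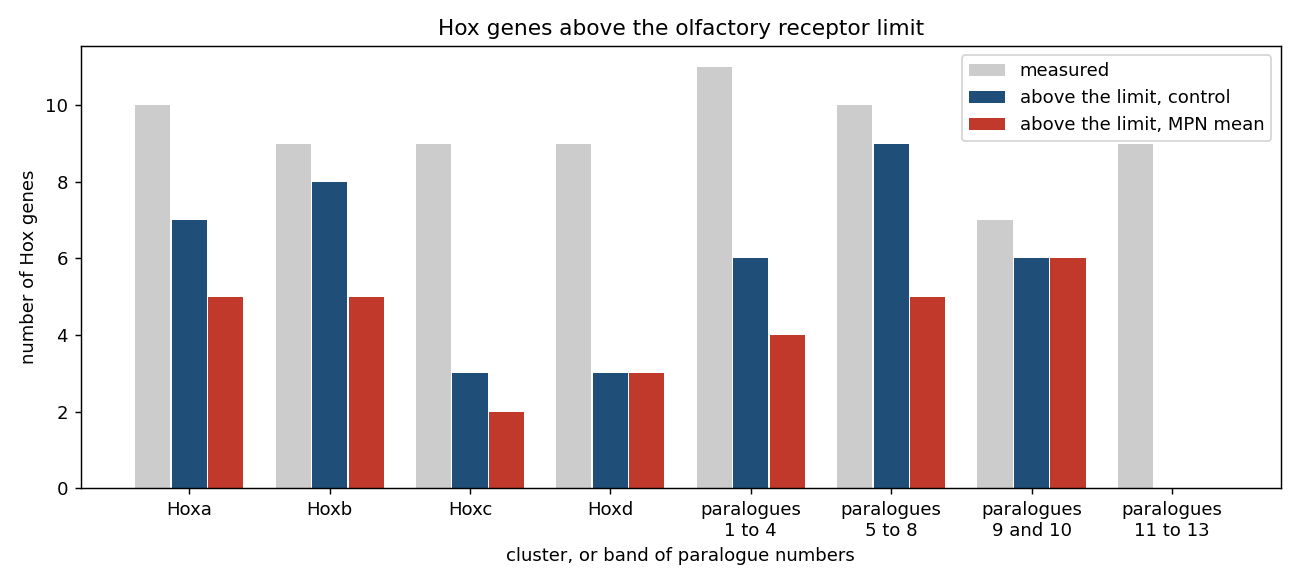
Number of Hox genes (vertical axis) measured (grey), above the limit in the control (blue) and above it in the MPN mean (red), for each cluster and each band of paralogue numbers (horizontal axis). The bars for numbers 5 to 8 stand at 9 and 5, those for 9 and 10 at 6 and 6, and those for 11 to 13 at 0. These bands were chosen with the values known, and 55.9% (control) and 49.8% (MPN) of all genes were above the limit.

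None of the Hox genes passed limma's test adjusted over all genes (Benjamini-Hochberg), and 0% of all genes did. The smallest adjusted p of a Hox gene was 0.171, for Hoxa2. Unadjusted, 6 Hox genes had a p under 0.05 with a lower MPN mean, a share of 16.2% against 8.63% of all genes, and 1 with a higher mean, 2.7% against 3.97%. At least 1 log2 unit lower were 2 of the 37, 5.41% against 10.3% of all genes, and 0 were as much higher, against 3.47%. On all 3 MPN arrays 9 Hox genes lay below the control, 24.3% against 21.1% of all genes, and 11 lay above it, 29.7% against 46.8%. The median difference over the family was 0.00 (0.18 over all genes), with 17 Hox genes lower, 19 higher and 1 equal. Of all 19938 genes, 6668 were lower and 13246 higher. With arrays shifted to one receptor median the Hox median was -0.24.

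Hoxa5 encodes a factor of lung and cervicothoracic skeletal development. The MPN mice had 3.96, 4.48 and 4.37, and the control mouse had 6.03. All 3 MPN values were under the limit and the control value above it, with no overlap. Because no MPN array was above its own limit, the MPN level is only bounded. The control value was 1.54-fold above the mean of the 3 array limits, 5.41. This bound leaves out the error of the single control array. The measured difference was -1.76 (SE 0.28), with unadjusted p = 0.00573 and adjusted p = 0.174 by limma. Over all alternatives the measured difference ran from -2.01 to -1.61 and the adjusted p from 0.0983 to 0.483.

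Hoxc6, a gene of the thoracic region and of motor neurons that serve the forelimb, was at 5.74, 5.27 and 5.43 against 6.67. The MPN values lay together near the limit, 2 of the 3 above the limit of their own array, and the control stood above all of them. The difference was -1.19 (SE 0.26), with adjusted p = 0.249 by limma.

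Hoxb5, a gene also known as a mark of long-term blood stem cells in mouse marrow, was at 4.86, 4.72 and 4.61 against 5.52. The groups did not overlap, and the measured difference was -0.79 (SE 0.18, adjusted p = 0.269 by limma). No MPN array was above its limit. The control value stood 1.08-fold above the mean of the MPN array limits, a log2 gap of 0.11 that was smaller than the SE, so no lower bound is drawn from it. Hoxa6, a thoracic gene next to Hoxa5 in its cluster, was at 5.49, 5.65 and 5.48 against 5.99, with no overlap (-0.45, SE 0.17). Hoxb6, the paralogue in the b cluster, was at 5.22, 5.53 and 4.999 against 5.41. Here MPN mouse 2 lay above the control and the others below it. Hoxc5 was under the limit in both groups.

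The genes numbered 7 and 8 went both ways. Hoxa7, one of the Hoxa genes of blood progenitors, was at 5.92, 6.13 and 5.72 against 5.92, so the control lay within the MPN range. Hoxb7 was at 6.12, 5.62 and 5.41 against 5.28, all 3 MPN mice higher by a mean of 0.44 (SE 0.36). The 3 MPN mice spread more widely than they stood from the control. Hoxc8, a gene of the thoracic skeleton and forelimb motor neurons, was at 4.97, 4.98 and 4.72 against 5.16, with no overlap and a difference of -0.28 (SE 0.20). Hoxd8 had the largest spread of the family, at 6.36, 6.72 and 4.88 against 6.03. MPN mouse 3 was below the control and the other mice above it, so the mean difference of -0.04 (SE 0.88) became 0.51 without MPN mouse 3.

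Among the low-numbered genes, Hoxa2 and Hoxb4 stood apart from the control. Hoxa2, which patterns the hindbrain and the second pharyngeal arch, was at 4.30, 4.33 and 4.38 against 5.29. The MPN mice lay within 0.1 of each other, under the limit, and the control was just above its own. The control value was also below the mean MPN array limit of 5.41, so no fold is given. The measured difference was -0.95 (SE 0.15, unadjusted p = 0.00525, adjusted p = 0.171 by limma). Hoxb4, known for expanding blood stem cells when overexpressed, was at 5.39, 5.39 and 5.65 against 6.17, with no overlap. It differed by -0.70 (SE 0.20, adjusted p = 0.336 by limma), and was under the limit in MPN when MPN mouse 3 was left out.

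Of the other low-numbered genes above the limit, 3 had the control inside the MPN range and Hoxb1 did not. Hoxa4 was at 6.62, 6.77 and 6.04 against 6.49, and Hoxb3 at 6.72, 6.53 and 6.46 against 6.56. Hoxb2, which acts downstream of Hoxb1 in the hindbrain, was at 5.14, 5.29 and 5.10 against 5.20. Hoxb1, a gene of the early hindbrain, was at 6.69, 6.74 and 6.53 against 6.25. All MPN arrays were higher, by a mean of 0.40 (SE 0.17), and by 0.16 after the shift to one receptor median.

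Of the genes numbered 9 and 10, Hoxd10 and Hoxc9 were lower on all 3 MPN arrays. Hoxd10, a gene of the lumbar spinal cord and the limb, was at 5.58, 5.54 and 5.57 against 6.28. The MPN mice were nearly equal, and their mean was still above the limit. The difference was -0.71 (SE 0.15, adjusted p = 0.233 by limma). Hoxc9, which marks the thoracic spinal cord, was at 5.50, 5.62 and 5.24 against 5.88, with no overlap (-0.43, SE 0.22).

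In the other genes of these numbers above the limit, apart from Hoxa9, the control lay inside the MPN range. Hoxa10, a gene of the lumbar skeleton and the uterus, was at 6.43, 6.14 and 5.56 against 6.10. Hoxb9 was at 5.83, 6.13 and 5.56 against 5.62 and Hoxd9 at 5.47, 5.47 and 5.14 against 5.35. Hoxd9 was the gene nearest to the limit, its MPN mean of 5.36 just above it and none of its 3 arrays above the limit of its own array. Hoxc10 was under the limit in both groups.

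Hoxa9, the Hox gene best known from leukaemia, had the value 5.98 on all 4 arrays, so its difference was 0 with no spread. Only 0.11% of all genes had the same deposited value on all 4 arrays. In 9 of the 37 Hox genes at least 2 arrays shared a value, 24.3% against 12.7% of all genes, and in 4 the control shared one with an MPN array, 10.8% against 6%. Those 4 were Hoxa7, Hoxa9, Hoxc4 and Hoxc10. In such genes the SD and SE rest partly on equal values, and how the equal values arose was not tested.

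**Figure D3:**
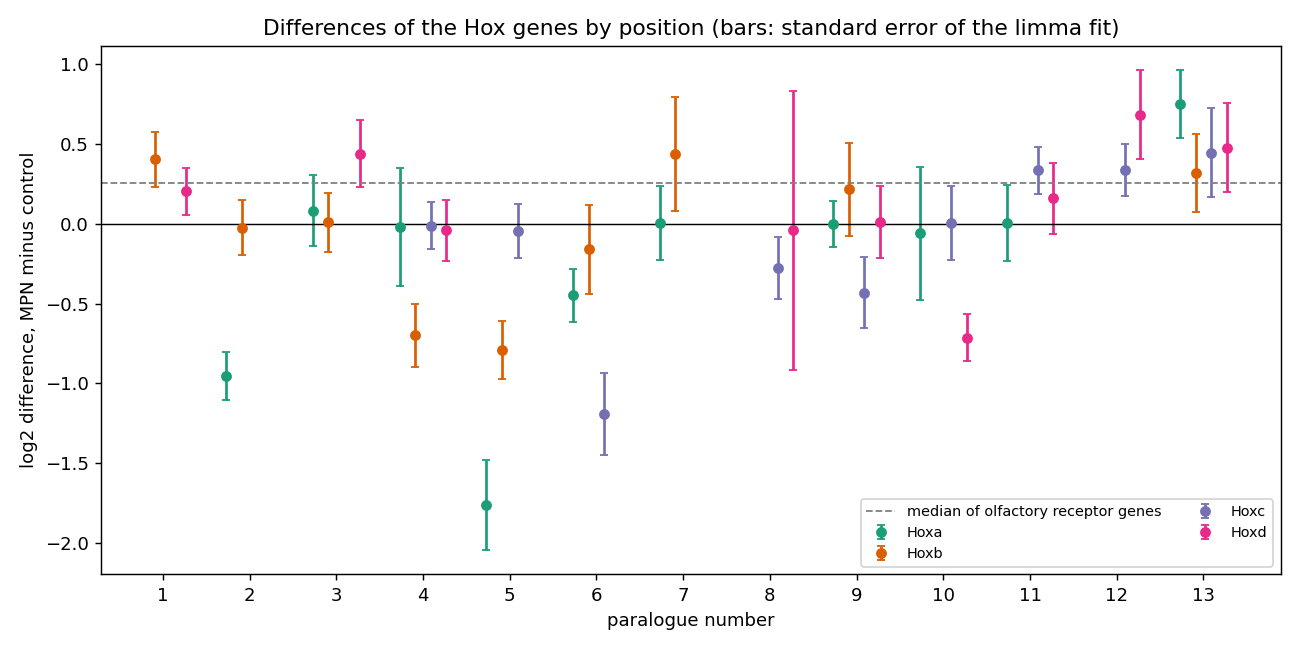
Log2 difference between the MPN mean (n = 3) and the control (n = 1) of each Hox gene (vertical axis) by paralogue number (horizontal axis), coloured by cluster. Bars are the standard error of the limma fit and the dashed line is the receptor median of 0.26. Hoxa5 (-1.76) and Hoxc6 (-1.19) lie lowest, and all 9 genes numbered 11 to 13 lie above 0 as deposited, of which Hoxa11 and Hoxd11 were below 0 after the shift to one receptor median and after cyclic loess, and Hoxa11 also after repeated quantile normalisation.

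The genes at the end of the clusters, Hoxa11 and Hoxd11 of the forearm and lower leg, Hoxa13 and Hoxd13 of the digits and their relatives, were under the 95th percentile limit in both groups (Hoxa11 and Hoxd11 were above the 90th percentile in the control). As deposited, all 9 genes numbered 11 to 13 had a positive difference (Hoxa11 and Hoxd11 were below 0 after the shift to one receptor median and after cyclic loess, and Hoxa11 also after repeated quantile normalisation and without MPN mouse 1), with a median of 0.34 and a range from 0.01 for Hoxa11 to 0.75 for Hoxa13. The receptor genes had a median of 0.26, and 972 of the 1027 were higher in MPN, so this direction was also that of the background genes. Hoxa13 was at 4.46, 4.73 and 4.40 against 3.78 (SE 0.21, unadjusted p = 0.0314, adjusted p = 0.339 by limma). Hoxd12 was at 4.67, 5.13 and 4.67 against 4.14. Both were under the limit on every array and their sizes are uncertain there.

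The 16 Hox genes under the limit in both groups had values from 3.72 to 5.15 and a median difference of 0.26. All genes under the limit in both groups had 0.26 as well. The 15 Hox genes above the limit in both groups had a median of -0.02, against 0.10 for all such genes. The 6 above it in the control alone had -0.53, against -0.76 for all such genes, where the limit itself selects lower values.

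The DNA-binding partners of Hox proteins, the TALE homeodomain factors of the Pbx, Meis and Pknox families, had a median difference of -0.54 over 8 of 9 measured genes, against 0.18 over all genes. None passed over all genes, 1 had an unadjusted p under 0.05 with a lower MPN mean and 0 with a higher one. Of all genes 8.63% and 3.97% did. Above the limit were 7 in the control and 3 in MPN, against 55.9% and 49.8% of all genes. Meis1, the partner of Hoxa9 in blood stem cells, was at 4.67, 4.94 and 5.58 against 6.10. Its MPN mean was under the limit, so the size of its difference is uncertain. Pbx3 was at 4.90, 4.76 and 4.86 against 5.80 and differed by -0.96 (SE 0.16, adjusted p = 0.179 by limma), and it was the 1 gene just counted. Its MPN values were under the limit, so the size is uncertain. Meis3 was at 6.09, 6.23 and 5.76 against 6.76. All 3 genes, which had the largest differences of the list, were lower on each MPN array. Of the 8 partners, 5 were lower on each and 2 higher on each, against 21.1% and 46.8% of all genes.

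The factors that keep Hox genes active include Kmt2a, the histone methyltransferase MLL, its complex, Cdx factors and retinoic acid receptors. Their list had a median difference of -0.11 over 15 genes, with 0 past the adjusted threshold. At an unadjusted p under 0.05, 2 were lower and 0 higher, against 8.63% and 3.97% of all genes. Kmt2a was at 6.49, 6.09 and 7.02 against 7.94 (-1.40, SE 0.44). Mllt3, a partner of MLL in leukaemia fusions, was at 5.68, 5.23 and 5.38 against 6.41. Rbbp5, a core subunit, was at 6.66, 5.53 and 6.54 against 7.27. In all 3, which had the largest differences of the list, the control stood above every MPN array. Of the 15 genes, 5 were below the control on all 3 MPN arrays and 3 above it. Among all genes 21.1% and 46.8% were.

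Polycomb proteins keep Hox genes silent. Their list had a median of -0.08 over 14 of 15 measured genes, with 0 past the adjusted threshold. Lower at an unadjusted p under 0.05 were 2 and higher 0, against 8.63% and 3.97% of all genes. Bmi1, a subunit of the first polycomb complex that blood stem cells need, was at 5.80, 5.47 and 5.45 against 6.93, a difference of -1.36 (SE 0.23, adjusted p = 0.182 by limma). Rnf2, its ubiquitin ligase partner, was at 5.56, 5.13 and 5.36 against 6.17. Eed, of the second complex, ranged from 5.02 to 8.06 in MPN around the control's 7.52. Its difference was -1.21 with the probe set kept and -0.45 with its probe sets averaged. Ezh2, the methyltransferase of the second complex, was at 8.67, 8.97 and 9.03 against 8.91, with the control inside the range. Of the 14 genes, 5 were below the control on all 3 MPN arrays and 1 above it on all 3. Among all genes 21.1% and 46.8% were.

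**Figure D4:**
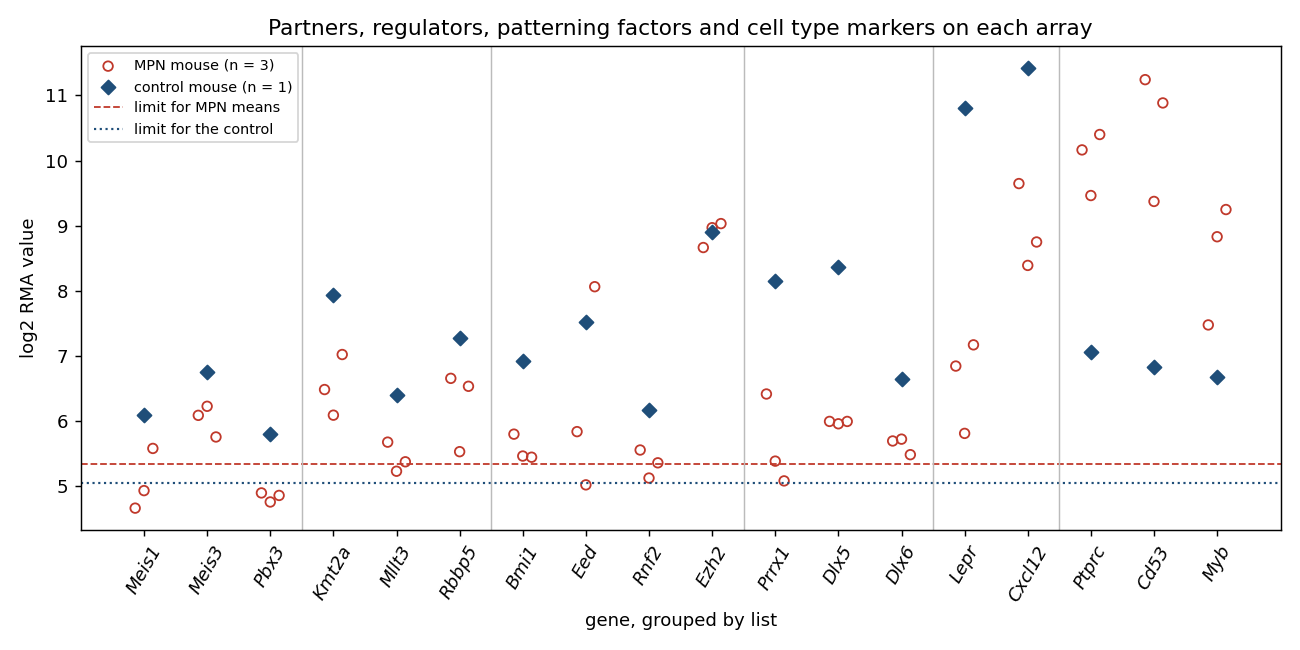
Log2 RMA value (vertical axis) of Hox partners, regulators, limb patterning factors and cell type markers (horizontal axis) on each array. Open circles are the 3 MPN mice and diamonds the control. Grey lines separate the lists, except that the last block holds Ptprc and Cd53 of the pan-leukocyte list and Myb of the progenitor list. The lines are the olfactory receptor limits. Meis1, Pbx3, Kmt2a, Bmi1, Prrx1, Dlx5 and Lepr have the control on top, Ezh2 has it inside the MPN range, and Ptprc, Cd53 and Myb have it at the bottom.

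Genes that flank the clusters were listed for comparison. Over 13 neighbours the median was 0.10, with 0 past the adjusted threshold. At an unadjusted p under 0.05, 2 were lower and 0 higher, against 8.63% and 3.97% of all genes. Mtx2, a mitochondrial gene beside the Hoxd cluster, was at 5.44, 4.99 and 4.996 against 6.53. Lnpk, on the other side of that cluster, was at 4.59, 5.46 and 4.87 against 5.83. The MPN means of Mtx2 and Lnpk were under the limit, so the sizes of their differences are uncertain. Atf2, a transcription factor farther out, was at 6.70 on each MPN array against 7.85. Its 3 MPN arrays shared 1 deposited value, so its test, 1 of the 2 just counted, rests on equal values. Mtx2, Lnpk and Atf2, which had the largest differences of the list, lay below the control on every MPN array. Of the 13 neighbours 4 did, and 3 lay above it on every one, against 21.1% and 46.8% of all genes. Of 15 noncoding genes listed inside the clusters 8 were measured, and only Mir615, a microRNA gene in the Hoxc cluster, was above the limit, at 7.66, 7.61 and 6.99 against 6.82. The array reads its precursor, not the mature microRNA.

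Skeletal and limb patterning factors gave a further view of positional identity. Their list had a median of 0.01 over 18 of 20 measured genes, with 0 past the adjusted threshold. Lower at an unadjusted p under 0.05 were 4 and higher 1, against 8.63% and 3.97% of all genes. Prrx1, a factor of limb and skeletal mesenchyme, was at 6.42, 5.39 and 5.09 against 8.16 (-2.53, SE 0.64). Dlx5, a factor of bone-forming cells, was at 6.00, 5.96 and 6.00 against 8.36 (-2.37, SE 0.15, adjusted p = 0.0871 by limma). It passed after cyclic loess (adjusted p = 0.0480) and after the shift to one receptor median (adjusted p = 0.0497), and not under the other alternatives. Dlx6, its neighbour, was at 5.70, 5.73 and 5.49 against 6.65. These 3, which had the largest differences of the list, had no overlap between groups. Of the 18 genes, 7 were below the control on all MPN arrays and 7 above it. Among all genes 21.1% and 46.8% were. No Hox gene had a measured difference as large as that of Prrx1 or Dlx5 on the deposited scale. That of Hoxa5, -1.76, is only bounded because its MPN values were under the limit. Prrx1 was also under the limit of the array in MPN mice 2 and 3 (limits of 5.50 and 5.19). The sizes therefore cannot be ranked.

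Among the 11 of 12 measured markers of blood stem and progenitor cells, which also use Hox genes, the median difference was 0.32. With 0 past the adjusted threshold, 0 were lower and 2 higher at an unadjusted p under 0.05 (all genes: 8.63% and 3.97%). The 2 were Flt3 and Mycn, both under the limit in both groups. After the shift to one receptor median the list's median was 0.078. The summed log2 level of the 11 markers was 60.64 to 62.64 in MPN and 57.19 in the control, and Mecom, Procr and Slamf1 were also under the limit in both groups. Myb, a factor of progenitor growth, was at 7.48, 8.83 and 9.25 against 6.68, higher on each MPN array. Kit, the receptor of stem cell factor, was at 5.58, 6.35 and 5.96 against 6.82, lower on each. Of 8 erythroid markers listed 5 were measured, with a median difference of 0.14 and 0 at an unadjusted p under 0.05 in either direction.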

How the data were processed

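Per the labels' protocols and the series design, Picopure RNA of the sorted cells went through NuGEN Ovation amplification and biotin labelling before hybridisation to an Affymetrix mouse gene array. The authors deposited log2 values that come from RMA, per the submitters' processing notes. RMA compresses differences near background and normalises the arrays to each other. The deposited values were still not on one distribution, with medians over all genes from 5.24 (MPN mouse 3) to 5.33 (MPN mouse 1). Its version, the definitions of the probe sets and the build used for them are not given here by any source. The log2 values ran from 1.55 to 13.63, and precision is limited by the number of arrays.

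Of 35556 probe sets, 21789 had 1 gene symbol, 1621 had several and 12146 are unnamed here. Per gene, the probe set of highest mean was kept. MPN was compared with control by a two-sided limma test (version 3.58.1, R 4.3.3, functions lmFit and eBayes, adjusted over 19938 genes, threshold 0.05). The fit has 2 residual degrees of freedom, from the MPN mice, and 1.39 prior ones, and the control mouse is assumed to vary as they do. SE is that of the fit. A p-value measures the spread of these arrays only. The steps were tested on simulated data.

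A level counted as above background when the group mean (in the control, its 1 value) passed the 95th percentile of the olfactory receptor genes. Any Hox gene could be named, and those above it in either group or at least 1 log2 unit apart were given by array. Hoxa13 and Hoxd12 were given by array as well, chosen after their values were seen. Of each other list, up to 3 genes above it with the largest difference were named, with a few genes named in advance. Some listed genes are not reported here. Members and lists were chosen with earlier results of these data known.

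Alternatives left out each MPN mouse and averaged probe sets. Others repeated quantile normalisation, applied cyclic loess, shifted arrays to one receptor median, changed the prior or the genes tested, or changed the limit.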

Additional observations from a re-analysis of the deposited data

How the results depend on the processing

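No Hox gene passed the adjusted threshold under any of the 10 alternatives to the fit, where the lowest adjusted p was 0.0983, for Hoxa5 with the arrays shifted to one receptor median. The count over all genes was 0 as deposited, with 2511 at an unadjusted p under 0.05. It was 97 after cyclic loess and 112 after the receptor shift. The count of Hox genes lower at an unadjusted p under 0.05 was 6 as deposited and 4 to 9 over the alternatives. The count higher, 1 as deposited, was 0 to 1 when an MPN mouse was left out (0 without MPN mouse 1), 0 after cyclic loess, after the receptor shift and among genes above the limit, and 2 with an intensity trend in the prior. The median Hox difference was -0.24 after the receptor shift. Hoxd1, under the limit in both groups, reversed from 0.20 to -0.012 after cyclic loess and -0.043 after the receptor shift. These shifts changed the sign of 9 and 10 Hox genes, none with a deposited difference over 0.22 in size. The median of the partner list ran from -0.79 to -0.40, and the medians of the activation, neighbour, patterning, noncoding and erythroid lists changed sign under some alternatives.

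The number of Hox genes above the limit was 13 in the control and 3 in MPN with the 99th percentile as the limit, which left 10 in the control alone. It was 9 in MPN when every array had to pass its own limit, which left 12 in the control alone. That rule asks 3 arrays to pass in MPN and 1 in the control. Of all genes 35.8% passed it in MPN and 55.9% in the control. With 1 limit from the mean over the 4 arrays 3 Hox genes were in the control alone, while 50.1% of all genes were above it in the control and 53.2% in MPN. Without 1 MPN mouse the number in MPN was 13 to 15. The number of Hox genes above the limit in MPN alone was 0 under every alternative. The size of a difference of Hox genes under the limit is uncertain, and the control is 1 array. No paired analysis was possible because the control is a single array.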

Other observations

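A probe set annotated to both Hoxb8 and Hoxb7 was outside the gene table. Its values were 4.47, 4.37 and 4.34 in the MPN mice against 4.80 in the control, all under the limits, and differed by -0.41 (SD of the MPN arrays 0.07), while the probe set of Hoxb7 alone had a difference of 0.44. Mir196a-2, a microRNA gene in the Hoxc cluster whose family targets Hox transcripts, was at 4.49, 4.51 and 4.19 against 3.25. All 4 values were under the limit, so no fold is given, and the adjusted p was 0.206 by limma.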
